A study of Mus musculus with 8 samples.

Results

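Peaks of open chromatin at small nucleolar RNA (snoRNA) genes were examined in multipotent progenitors with and without Ebf1, the gene of a transcription factor needed for B cell development. A peak was included when its closest GENCODE vM21 transcript belonged to a gene annotated as snoRNA. The peak centre had to lie inside that transcript, within 20 kb before its start or within 10 kb after its end, and the closest transcript was the one with the smallest distance from the peak centre to its start, centre or end. This gave 400 of 87642 peaks in MPP3 cells, or 0.456%, and 368 of 86952 peaks in MPP4 cells, or 0.423%. Over both tables these were 768 of 174594 peaks. They lay at 326 of the 1507 annotated snoRNA genes, and 190 of these genes had a peak in both cell types.

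The study profiled chromatin by ATAC-seq, in which the transposase Tn5 inserts adapters into accessible DNA. It used 5000 sorted bone marrow cells per library, with 2 libraries for each genotype and cell type and 8 libraries in all, from C57BL/6 mice. Knockout mice (Ebf1KO) were Ebf1fl/fl Tie2Cre +/cre, and control mice (Ebf1WT) were labelled Ebf1fl/fl Tie2Cre +/+, so both carried the floxed Ebf1 allele and the controls had no Cre. The design text of the series instead names Ebf1-wt Tie2Cre controls, while the methods of the study allow both kinds. Tie2-Cre acts in endothelial and haematopoietic cells, so the deletion was not limited to the sorted populations. MPP3 and MPP4 cells were both sorted from LSK cells as CD150- CD48+, and MPP4 cells were also Flt3+. MPP3 cells came from 8-week-old Ebf1WT mice and from Ebf1KO mice aged 8 and 9 weeks. MPP4 cells came from 9-week-old Ebf1WT mice, 1 of them male, and from 8-week-old Ebf1KO mice, and all other mice were female. In MPP4 cells age and genotype therefore cannot be told apart, and sex was not balanced between the genotypes. The deposited tables give 1 fitted comparison per cell type and no value per library. For this reason each peak is given below by its mean level over 4 libraries, its log2 fold change of Ebf1KO over Ebf1WT and its error, and the spread of single libraries cannot be shown.

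snoRNAs guide chemical modification or cleavage of other RNAs in the nucleolus. Box C/D snoRNAs direct ribose methylation and box H/ACA snoRNAs direct pseudouridylation, mostly of ribosomal RNA. Most mammalian snoRNAs lie in introns of host genes and are cut out of the host transcript, so that the host promoter drives them. U3 (Rnu3a and the Rnu3b copies), U8 (Snord118) and U13 (Snord13) are exceptions that are transcribed from promoters of their own. U3 is needed for the early cleavages of the ribosomal RNA precursor and U8 for maturation of the large-subunit RNAs, and U13 pairs with the small-subunit RNA.

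The sequences of U3 and U8 genes are shown first because the largest group of differences lay on them. They were read from the GRCm38 (mm10) genome at chr10:40258467-40258680 (Rnu3a, plus strand, 214 bp), at chr11:87443237-87443452 (Rnu3b1, plus strand, 216 bp) and chr11:69073427-69073561 (Snord118, plus strand, 135 bp). Each is written from 5′ to 3′ on the strand of the gene, and capitals mark TGATGA, the core letters of box C, and CTGA, the letters of box D.
Rnu3a: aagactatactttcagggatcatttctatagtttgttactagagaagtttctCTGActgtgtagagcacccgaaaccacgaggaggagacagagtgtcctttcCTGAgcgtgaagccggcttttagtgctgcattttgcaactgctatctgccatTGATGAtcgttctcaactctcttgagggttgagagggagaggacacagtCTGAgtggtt
Rnu3b1: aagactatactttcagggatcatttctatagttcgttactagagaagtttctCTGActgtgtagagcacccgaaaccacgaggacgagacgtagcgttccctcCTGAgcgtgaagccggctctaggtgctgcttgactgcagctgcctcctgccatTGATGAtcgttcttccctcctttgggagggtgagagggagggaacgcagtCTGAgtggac
Snord118: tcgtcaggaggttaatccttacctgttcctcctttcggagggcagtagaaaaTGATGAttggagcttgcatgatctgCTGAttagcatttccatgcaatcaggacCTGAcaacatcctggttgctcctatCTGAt
TGATGA occurred once in each gene, at position 156 of Rnu3a, 157 of Rnu3b1 and 53 of Snord118, counted from the first base of the gene. It was found on the transcribed strand in 26.1% of all 1507 snoRNA genes and on the other strand in 1.39%, and on either strand in 8.53% of windows of 216 bp centred on all MPP4 peaks. CTGA is short and was found in 79.5% of snoRNA genes on the transcribed strand, in 56.1% on the other strand and in 90.6% of the same windows on either strand. The last CTGA began at position 205 of Rnu3a, 207 of Rnu3b1 and 131 of Snord118.

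The 5 U3 genes with Rnu3 symbols fell into a single Rnu3a and 4 Rnu3b copies. Rnu3a lay outside other annotated genes. The 4 Rnu3b genes lay on chromosome 11 in introns of Tex14, a gene of the germ line, on the same strand and without overlap with its exons. The Rnu3b copies were 100% identical to each other over the gene, and Rnu3a was 86.0% identical to them. Reads inside the identical stretch cannot be placed in 1 copy. The authors kept reads with a mapping quality of at least 5, a filter that discards ambiguous reads, so reads there may be missing or shared between copies, and which of these applies was not tested. The Rnu3b copies ranged from 68.2% to 73.0% identity over the stretch of the downstream peak. Over the stretch of the upstream peak they ranged from 87.0% to 97.2%. The stretch of the downstream peak includes the end of the gene, where the copies are identical. Reads in the parts that differ can be placed more often. Further peaks lay at predicted genes that RefSeq puts in the U3 and U8 families, and none was called. The U3 family peaks numbered 6 in MPP3 and 7 in MPP4 cells, with median log2 fold changes of −0.22 and −0.10. The U8 family peaks numbered 4 in MPP3 cells, with a median of 0.19, and 1 in MPP4 cells, at 0.14.

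Upstream of the gene, U8 and U13 each held the octamer ATGCAAAT or its reverse complement ATTTGCAT, an element of many snRNA-type promoters. No U3 gene held it within 300 bp upstream. The window upstream of U8 is shown, chr11:69073133-69073232 of GRCm38, plus strand, with the octamer in capitals.
Snord118 upstream: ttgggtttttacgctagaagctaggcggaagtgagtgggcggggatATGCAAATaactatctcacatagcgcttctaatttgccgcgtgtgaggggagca
The octamer began 248 bp upstream of Snord118 and 210 bp upstream of Snord13. Searched on both strands over 300 bp upstream, it was present at 34 of 1507 snoRNA genes (2.26%) and at 1.65% of 21937 protein-coding genes. The MPP4 peak at Snord13 ran from −451 to 271 bp and covered the octamer, whereas the MPP4 peak at Snord118 ran from −29 to 485 bp and did not reach it.

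Most other peaks were assigned to predicted snoRNA genes with names beginning with Gm, with 385 of 400 in MPP3 and 352 of 368 in MPP4 cells. The median distance that decided the assignment was 2984 bp in MPP3 and 3441.5 bp in MPP4 cells, and 154 and 148 peaks were more than 5 kb away. Only 46 peaks in MPP3 and 47 in MPP4 cells overlapped the snoRNA gene itself. A further 47 and 41 lay elsewhere inside a host gene, 74 and 69 inside another gene, and 232 and 211 in no other annotated gene. Of the peaks that did not overlap their snoRNA, none lay at the start of its host gene. Peaks over the snoRNA were not checked for this. Peaks at host starts are described further on. Of the snoRNA genes behind these peaks, those with a host accounted for 56 peaks in MPP3 and 52 in MPP4 cells. These counts, and those inside a host gene, include peaks of the Rnu3b copies. The copies lie in Tex14 and have promoters of their own. RefSeq gave a snoRNA family for 268 and 237 peaks, and SNORA17 was the most frequent. Genes of that H/ACA family accounted for 173 peaks at 123 genes in MPP3 and 144 peaks at 92 genes in MPP4 cells, with a median log2 fold change of 0.00 and 0.01.

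The snoRNA peaks were weaker and shorter than the average peak. Their median level was 1.59 on the log2 CPM scale against 2.24 for all peaks in MPP3 cells, and 1.85 against 2.35 in MPP4 cells. Per kb of peak the medians were 3.66 against 4.11 and 3.75 against 4.15. The median length was 242 bp against 273 bp in MPP3 and 260.5 bp against 285 bp in MPP4 cells. A median of 11.6% and 12.3% of the peak sequence was masked as repeats, against 7.79% and 8.10% of all peaks. The approximate SE of the log2 fold change had a median of 0.67 against 0.50 in MPP3 and 0.50 against 0.41 in MPP4 cells, so that only large changes could be detected at most of these peaks. The 7 peaks over U3, U8 and U13 genes stood at the upper end, with a median level of 5.79 in MPP3 and 6.06 in MPP4 cells on the log2 CPM scale and single values per kb of 5.68 to 7.60 and 5.79 to 7.72. The other 39 peaks in MPP3 and 40 in MPP4 cells that overlapped a snoRNA gene were centred near 0, with a median of 0.01 on the log2 fold change scale in each cell type.

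**Figure D1:**
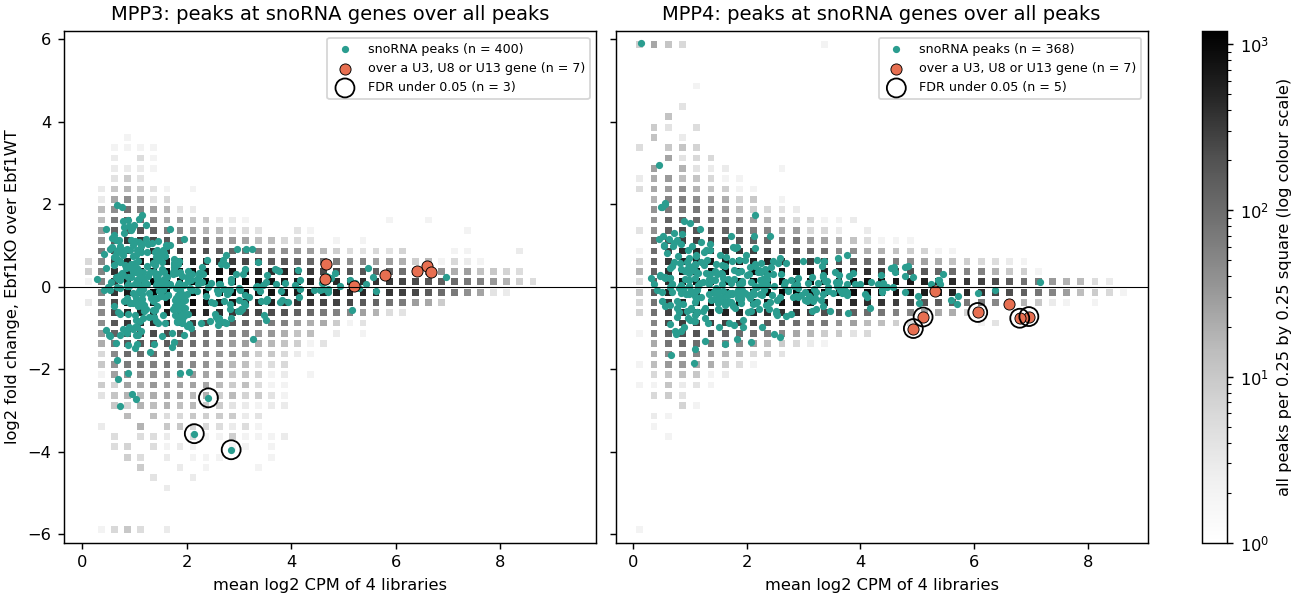
Each point is a snoRNA peak, with its mean level (log2 CPM over 4 libraries) on the x axis and its log2 fold change of Ebf1KO over Ebf1WT on the y axis, for MPP3 and MPP4 cells, over grey squares for the number of all peaks, with values beyond −6 or 6 placed at the edge. The peaks called at an FDR under 0.05 were 3 in MPP3 cells, at levels of 2.15 to 2.85, and 5 in MPP4 cells, at levels of 4.93 to 6.96, and all 8 lie below 0.

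Per kb of peak, the highest levels in MPP3 cells were 7.60 at Rnu3b1, 7.58 at Gm25148, 7.44 at Rnu3a and 7.37 at Rnu3b3 on the log2 scale. In MPP4 cells they were 7.76 at Gm25148, 7.72 at Rnu3a, 7.65 at Rnu3b1 and 7.29 at Gm26404. The peak of Gm25148, at chr13:56158924-56159582 in MPP4 cells, ran from −8676 to −8018 bp relative to the start of that predicted gene and lay in no other gene. Its log2 fold change was 0.24 ± 0.15 (approximate SE) in MPP3 and 0.13 ± 0.11 in MPP4 cells, with an FDR of 0.874 and 0.767 in the deposited edgeR fits. The peak of Gm26404 ran from −3510 to −2988 bp relative to the start of its gene and had a value of −0.07 ± 0.12 in MPP4 cells. Strong peaks assigned to snoRNA genes were therefore partly distant from them.

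Over all members, the genotypes differed little. Their median change on the log2 scale was 0.06 in MPP3 cells against −0.00 over all peaks, and 0.02 in MPP4 cells against 0.03. In MPP3 cells 47.2% of the members were below 0, against 50.4% of all peaks, and in MPP4 cells 47.8% against 47.4%. By the deposited edgeR quasi-likelihood test, 3 of 400 members were reduced in Ebf1KO MPP3 cells at an FDR under 0.05, while 0.468% of all MPP3 peaks were reduced. Among MPP3 members 0 were gained, where 0.0559% of all peaks were gained. At an unadjusted p under 0.05 there were 19 members, 11 of them lower and 8 higher in Ebf1KO cells, and 6.94% of all MPP3 peaks passed. In MPP4 cells 5 of 368 members were reduced against 0.118% of all peaks, and 0 were gained against 0.209%. Without the Rnu3b copies, which are identical over the gene and may share reads, 2 reduced members were left. Among the 2385 MPP4 peaks at a level of 6 or more on the log2 CPM scale, 25 were reduced and 17 gained. At an unadjusted p under 0.05 there were 38 MPP4 members, 21 lower and 17 higher, and 9.6% of all MPP4 peaks passed. The 5 reduced MPP4 peaks all lay on U3 and U8 genes, whereas the 3 reduced MPP3 peaks lay several kb from predicted snoRNA genes.

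In MPP4 cells accessibility fell at 4 of the 5 U3 genes and at U8. The Rnu3a peak at chr10:40258413-40259005 fell by 39.2%, with a log2 fold change of −0.72 ± 0.10 (approximate SE), a 95% interval from −0.93 to −0.51 and an FDR of 3.73e-05 in the deposited edgeR fit over 2 libraries per genotype. Its mean level was 6.96 on the log2 CPM scale, higher than 99.5% of MPP4 peaks. The Rnu3b1 peak at chr11:87443313-87443866 fell by 40.9%, with a log2 fold change of −0.76 ± 0.11 and an FDR of 8.27e-05. Thus the peaks at Rnu3a and Rnu3b1, which are different loci on different chromosomes, had overlapping intervals. The U8 peak at chr11:69073398-69073912 had the largest change of these, a fall of 50.3% or −1.01 ± 0.18 on the log2 scale, with an interval from −1.38 to −0.64 and an FDR of 0.00217. The other called peaks were Rnu3b4 at −0.62 ± 0.13 (FDR 0.0169) and Rnu3b2 at −0.73 ± 0.17 (FDR 0.0377). The remaining copy, Rnu3b3, had a log2 fold change of −0.42 ± 0.12 and did not pass, with an FDR of 0.110. U13 had a log2 fold change of −0.10 ± 0.17 with an interval from −0.44 to 0.24 and an FDR of 0.916, but its difference from the U3 and U8 peaks was not tested.

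The same 7 peaks had log2 fold changes above 0 in MPP3 cells, and none passed at an FDR under 0.05. Rnu3a was at 0.52 ± 0.18 on the log2 scale in the deposited edgeR fit of MPP3 cells (FDR 0.360) and Rnu3b2 at 0.56 ± 0.25 (FDR 0.672). Rnu3b1, Rnu3b3 and Rnu3b4 ranged from 0.29 to 0.38. Snord118 was at 0.20 ± 0.26 and Snord13 at 0.02 ± 0.22. At an unadjusted p under 0.05 in the same edgeR fit there were 3 of the 7, namely Rnu3a, Rnu3b1 and Rnu3b2, where 6.94% of all MPP3 peaks passed. Rnu3b1 and Rnu3b2 are copies and may share reads. Of the 2616 MPP3 peaks with a level of at least 6 on the log2 CPM scale, 241 were higher and 32 lower at this threshold.

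**Figure D2:**
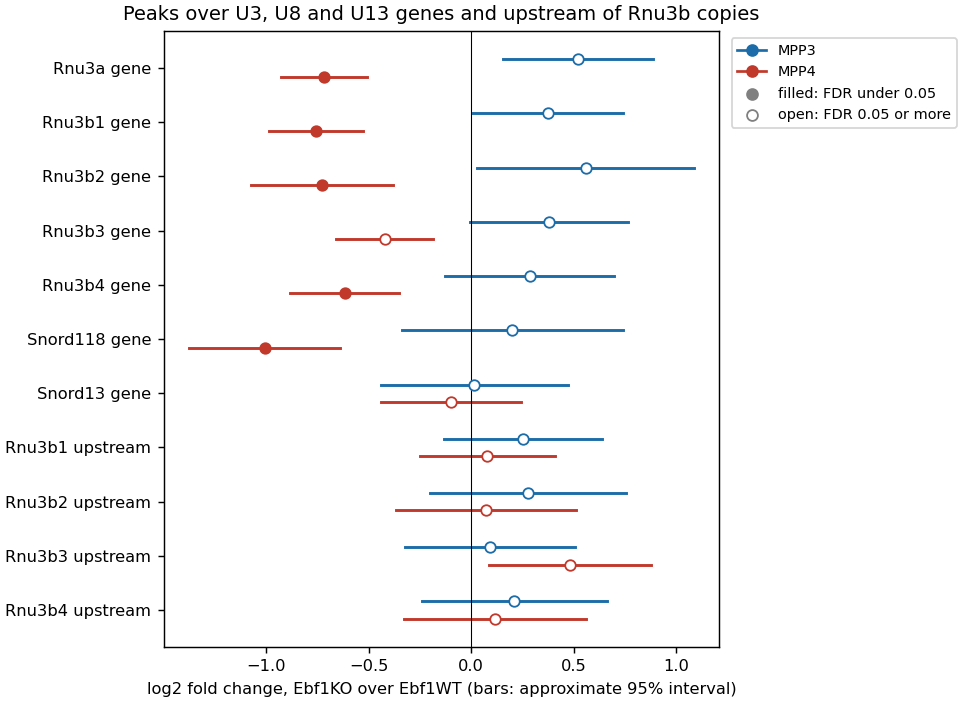
The log2 fold change of Ebf1KO over Ebf1WT is drawn for each peak at a U3, U8 or U13 gene in MPP3 and MPP4 cells, with bars for the 95% interval. In MPP4 cells the peaks over U3 and U8 genes lie at −1.01 to −0.42, and the peaks upstream of the Rnu3b copies at 0.07 to 0.48.

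Each Rnu3b gene carried a pair of peaks, and the peaks of a pair had different values in MPP4 cells. The upstream peaks began between 476 and 376 bp before the start of the gene and ended 180 to 123 bp before it in MPP4 cells. The downstream peaks began inside the gene, 76 to 167 bp after its start, and ended at 415 to 824 bp. Neither peak of a pair covered the stretch between them, in which the copies are 100% identical to each other. The copies are also 100% identical over the gene, so the downstream peaks began in identical sequence and ran on beyond it. The log2 fold changes of the 4 upstream peaks in MPP4 cells were 0.08, 0.07, 0.48 and 0.12 for Rnu3b1, Rnu3b2, Rnu3b3 and Rnu3b4, with approximate SEs of 0.16 to 0.22, and those of the downstream peaks were −0.76, −0.73, −0.42 and −0.62. The upstream value of Rnu3b3 had an FDR of 0.371 in the deposited edgeR fit. In MPP3 cells the upstream peaks ranged from 0.09 to 0.28 and the downstream peaks from 0.29 to 0.56. The difference between the peaks of a pair was not tested, since the tables give no value per library.

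**Figure D3:**
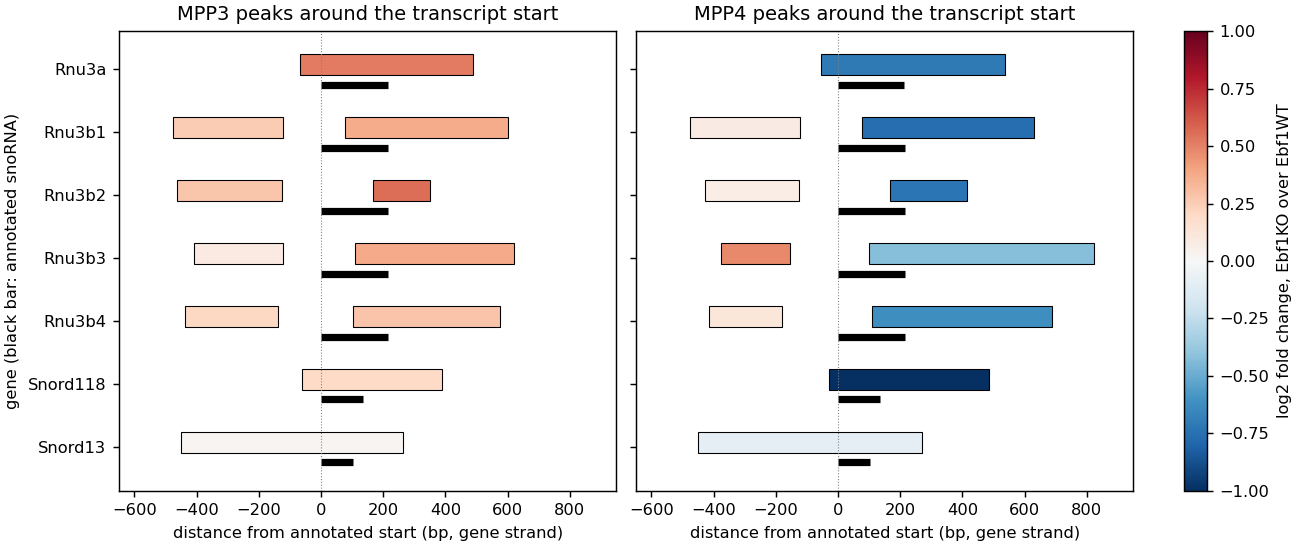
Bars show the extent of each peak around the U3, U8 and U13 genes along the distance from the annotated start (bp, on the strand of the gene), coloured by the log2 fold change of Ebf1KO over Ebf1WT, with the gene drawn below. At the Rnu3b copies in MPP4 cells the upstream peaks end 123 to 180 bp before the start, and the downstream peaks, with values of −0.76 to −0.42, begin 76 to 167 bp after it.

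Base composition and level were considered next. The 7 peaks over U3, U8 and U13 genes had a median GC content of 44.3% in MPP3 and 43.7% in MPP4 cells, while the Rnu3b upstream peaks had 61.0% to 64.9% in MPP4 cells. After subtraction of the median of all peaks in the same of 20 by 20 bins of GC content and level, Rnu3a was at −0.58, Rnu3b1 at −0.63 and Snord118 at −0.83 in MPP4 cells, and all 3 passed, with adjusted p-values of 0.00217, 0.00206 and 0.0277 from the deposited edgeR errors. Rnu3b4 and Rnu3b2 were both at −0.48 and did not pass after this subtraction, with adjusted p-values of 0.146 and 0.349. In MPP3 cells the Rnu3b3 peak turned from 0.38 to −1.03 (adjusted p = 0.00871), in a bin of 15 peaks, and with 10 by 10 bins it was at 0.18. The part of base composition in the remaining values was not tested.

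The 3 reduced MPP3 peaks had levels of 2.15 to 2.85 on the log2 CPM scale, near the median of all MPP3 peaks, and were distant from the snoRNA gene. The peak at chr2:168341426-168341853 began 5726 bp downstream of the start of Gm22704, a predicted gene of the SNORA2/SNORA34 family, and fell by 93.5% in Ebf1KO cells. Its log2 fold change was −3.95 ± 0.56 (approximate SE), with an interval from −5.11 to −2.78, a level of 2.85 on the log2 CPM scale and an FDR of 0.000882 in the deposited edgeR fit. The nearest start of a protein-coding gene was that of Kcng1, 59903 bp away. The peak at chr1:159991921-159992207 ran from −8602 to −8316 bp relative to the start of Gm24719 and fell by 91.5%, with a log2 fold change of −3.56 ± 0.76 and an FDR of 0.0319. The peak at chr6:29239428-29239745 began 4994 bp downstream of the start of Gm26021, a predicted gene of the SNORA17 family. It fell by 84.5%, with a log2 fold change of −2.69 ± 0.59 and an FDR of 0.0410, and lay 23222 bp from the start of Impdh1, an enzyme of guanine nucleotide synthesis. These peaks lay in no other annotated gene, and none of them had an overlapping peak in MPP4 cells.

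The peaks over the same snoRNA genes were not among the reduced ones. On the log2 scale, the peak that overlapped Gm22704 was at −0.08 ± 0.42 in MPP3 cells and was at 0.30 ± 0.22 in MPP4 cells, without passing. The peak over Gm26021 was at −0.28 ± 0.58 in MPP3 cells and at 0.50 ± 0.54 in MPP4 cells. Other distant peaks of Gm22704 in MPP3 cells had log2 fold changes of −0.81 (FDR 0.512) and −0.76 (FDR 0.777) in the deposited edgeR fit.

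All 3 reduced MPP3 peaks held the letters of an EBF1 binding motif, TCCCNNGGG or its reverse complement CCCNNGGGA, searched on both strands. A stretch of 100 bp of each is printed with the matches in capitals, from chr2:168341515-168341614, chr1:159992105-159992204 and chr6:29239513-29239612 of GRCm38, plus strand, because the motif is that of the deleted factor.
Gm22704 peak: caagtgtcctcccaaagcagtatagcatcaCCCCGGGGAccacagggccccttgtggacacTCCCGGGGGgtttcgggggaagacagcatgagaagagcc
Gm24719 peak: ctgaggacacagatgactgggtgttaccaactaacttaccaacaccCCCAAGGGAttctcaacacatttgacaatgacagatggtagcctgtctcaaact
Gm26021 peak: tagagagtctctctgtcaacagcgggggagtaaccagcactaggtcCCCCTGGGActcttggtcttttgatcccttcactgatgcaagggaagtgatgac
The Gm22704 peak held 2 matches and the others 1 each. The letters were present in 5.5% of MPP3 snoRNA peaks, in 7.46% of all MPP3 peaks, which have a median length of 273 bp, and in 158 of the 410 reduced MPP3 peaks, or 38.5%, which have a median length of 392.5 bp. A match is a description of the letters and not a measured binding site. None of the 7 peaks over U3, U8 and U13 genes held them in either cell type.

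The remaining named members had no call. Among members with a level of at least 3 on the log2 CPM scale, 70 in MPP3 and 88 in MPP4 cells, the lowest MPP3 values were −1.27 ± 0.36 at a peak from −13511 to −12943 bp relative to the start of Gm22018 (FDR 0.172), the value of −0.81 ± 0.31 at Gm22704 given above (FDR 0.512) and −0.67 ± 0.33 at the peak over Gm23220, an intronic gene of Enthd1 (FDR 0.736). The highest MPP3 values were 0.92 ± 0.35 at Gm24395 (FDR 0.477), 0.92 ± 0.38 at Snora17 (FDR 0.569) and 0.61 ± 0.33 at Gm23299 (FDR 0.797). In MPP4 cells the highest values were 0.77 ± 0.26 at Gm26289 (FDR 0.218), 0.71 ± 0.27 at Gm24728 (FDR 0.326) and 0.65 ± 0.32 at a peak upstream of Gm22704 (FDR 0.512). A weaker MPP3 peak at Gm22150 had a log2 fold change of −2.08 ± 0.65 and an FDR of 0.279. All errors are approximate SEs and all FDR values are those of the deposited edgeR fits.

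Some members lay at snoRNAs with a formal symbol or in a known cluster. Snord104, a box C/D snoRNA, had a strong peak over the gene, with a level of 5.62 on the log2 CPM scale in MPP3 and 5.60 in MPP4 cells, and log2 fold changes of −0.10 ± 0.18 and −0.32 ± 0.15 (FDR 0.470 in MPP4 cells, deposited edgeR fit). Snora44, an H/ACA snoRNA in the host Snhg12, was at −0.85 ± 0.42 in MPP3 and at −0.35 ± 0.31 in MPP4 cells, with an FDR of 0.748 and 0.800. Snord17, in an intron of Snx5, had a peak in MPP4 cells, with a log2 fold change of −0.07 ± 0.57. The imprinted SNORD116 cluster in Snhg14, a region known from Prader-Willi syndrome, had 4 peaks in MPP3 cells. Their log2 fold changes were 0.31, 0.56, 0.86 and 0.92 at Gm26097, Gm23446, Gm25944 and Gm25210, and the lowest unadjusted p-value was 0.0570 by the deposited edgeR test. Snora17, with 0.92 in MPP3 cells as above, was at −0.63 ± 0.26 in MPP4 cells (FDR 0.367), so that its sign differed between the cell types.

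Peaks of the separate tables were then matched by position. Of the 400 MPP3 members, 249 or 62.3% overlapped an MPP4 peak by at least 1 bp, against 75.7% of all MPP3 peaks. Members without a match were weaker, with a median level of 1.02 on the log2 CPM scale against 1.96 for members with a match in MPP3 cells. Both peaks were members in 247 pairs. The difference of the log2 fold changes was tested with a normal approximation from both approximate SEs and adjusted over all 66324 matched pairs. At an adjusted p under 0.05 the effect was lower in MPP4 than in MPP3 cells at 6 of the 247 pairs, against 0.395% of all pairs, and higher at 0, against 0.819% of all pairs. At an unadjusted p under 0.05 there were 26 member pairs, and 10.9% of all pairs passed.

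The 6 pairs were the peaks over the 5 U3 genes and U8, and 2 were left without the Rnu3b copies. The effect at Rnu3a was lower by −1.24 (95% interval −1.64 to −0.84, adjusted p = 2.93e-06 from the deposited edgeR errors) and that at Rnu3b1 by −1.13 (−1.54 to −0.72, adjusted p = 5.82e-05). The differences were −1.29 at Rnu3b2 (adjusted p = 0.00591), −1.21 at Snord118 (0.0195), −0.90 at Rnu3b4 (0.0208) and −0.80 at Rnu3b3 (0.0306) in the same edgeR-based test. With a t distribution in place of the normal one, 2 pairs passed, Rnu3a at an adjusted p of 0.0128 and Rnu3b1 at 0.0238, and the others lay between 0.0978 and 0.184. After centring in 20 by 20 bins of GC content and level, 1 pair passed, Rnu3a with a difference of −0.79 and an adjusted p of 0.0197. In the same centring the difference at Rnu3b3 became 0.68 (adjusted p = 0.115), where the MPP3 bin held 15 peaks. Snora17 came next, with a difference of −1.55, an interval from −2.44 to −0.66 and an adjusted p of 0.0528. The difference at Snord13 was −0.12, with an interval from −0.66 to 0.43, and those at the 4 upstream Rnu3b peaks ranged from −0.20 to 0.39.

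**Figure D4:**
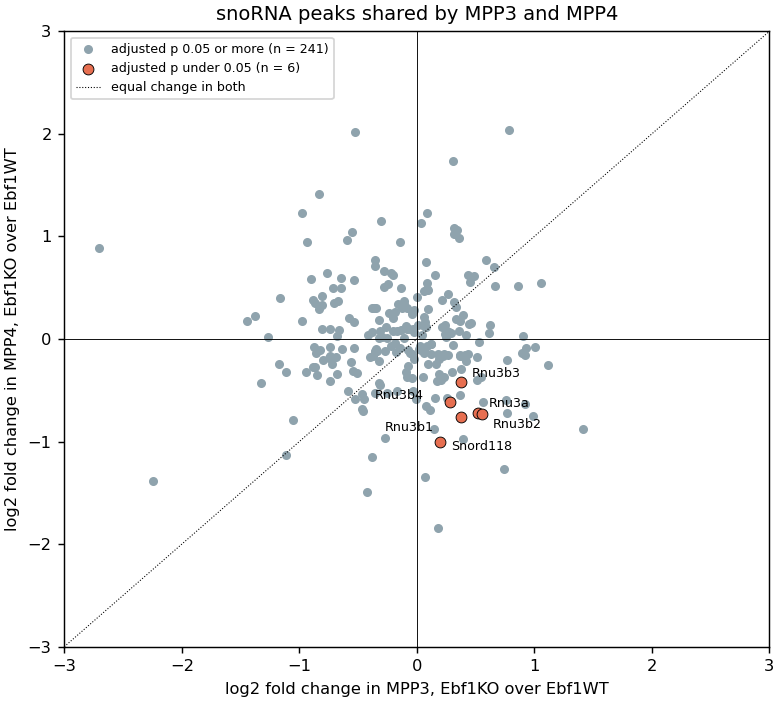
Each point is a snoRNA peak found in both cell types, with its log2 fold change of Ebf1KO over Ebf1WT in MPP3 cells on the x axis and in MPP4 cells on the y axis, and the pairs whose difference passed are labelled. The U3 and U8 peaks lie to the right of 0 on the x axis (0.20 to 0.56) and below 0 on the y axis (−1.01 to −0.42).

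Since most snoRNAs are made from host transcripts, the starts of host genes were examined as well. Of 19 listed host names, 17 were found in the annotation and each had a peak centred within 1 kb of a transcript start, and the highest such peak was taken. Among the 17, Snhg20 holds no annotated snoRNA on its strand by the rule for hosts used here. The peaks taken for Gas5, Snhg1 and Ncl were closest to transcripts of Zbtb37, Slc3a2 and C130036L24Rik. In MPP3 cells the log2 fold changes of the 17 ranged from −0.43 to 0.26 with a median of 0.04. By the deposited edgeR test 0 passed at an FDR or an unadjusted p under 0.05. A weaker start peak of Ncl in MPP3 cells, not taken here, was at 0.38 ± 0.18 with an unadjusted p of 0.0498 in the same test. In MPP4 cells the peaks of the 17 ranged from −0.39 to 0.66 with a median of −0.11, and 2 passed at an FDR under 0.05. Of all MPP4 peaks 0.118% were reduced and 0.209% gained. Of the 2385 MPP4 peaks with a level of at least 6 on the log2 CPM scale, 25 were reduced and 17 gained. The peak at Zfas1, a non-coding host of Snord12 genes, rose by 0.66 ± 0.13 on the log2 scale (FDR 0.00889). The peak at Hspa8, a constitutive chaperone and host of Snord14 genes, had a log2 fold change of −0.39 ± 0.08 and fell at an FDR of 0.00900. Gas5, a non-coding host of many box C/D snoRNAs, was at 0.02 ± 0.14 on the log2 scale in MPP3 cells.

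Hspa8 also carried reduced peaks further inside its locus in MPP4 cells, at chr9:40806845-40807227 with a log2 fold change of −1.75 ± 0.25 (FDR 2.62e-05, deposited edgeR fit) and at chr9:40807793-40808179 with −1.50 ± 0.25 (FDR 0.000439). When peaks were assigned by the distance to the transcript start alone, these 2 peaks were closest to Snord14e, and 1 more, at −1.93 ± 0.47 inside Cep85, was closest to Gm27619. The count of reduced MPP4 members was then 8 of 505, where 0.118% of all MPP4 peaks were reduced. Ribosomal protein genes are another large class of hosts, and 28 of 30 had a start peak. Their log2 fold changes ranged from −0.42 to 0.22 in MPP3 cells, with a median of −0.10, and from −0.51 at Rps20 to 0.22 in MPP4 cells, with a median of 0.00. None of them passed at an FDR under 0.05. At an unadjusted p under 0.05 there were 0 in MPP3 and 1 in MPP4 cells by the deposited edgeR test, where 6.94% and 9.6% of all peaks passed.

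**Figure D5:**
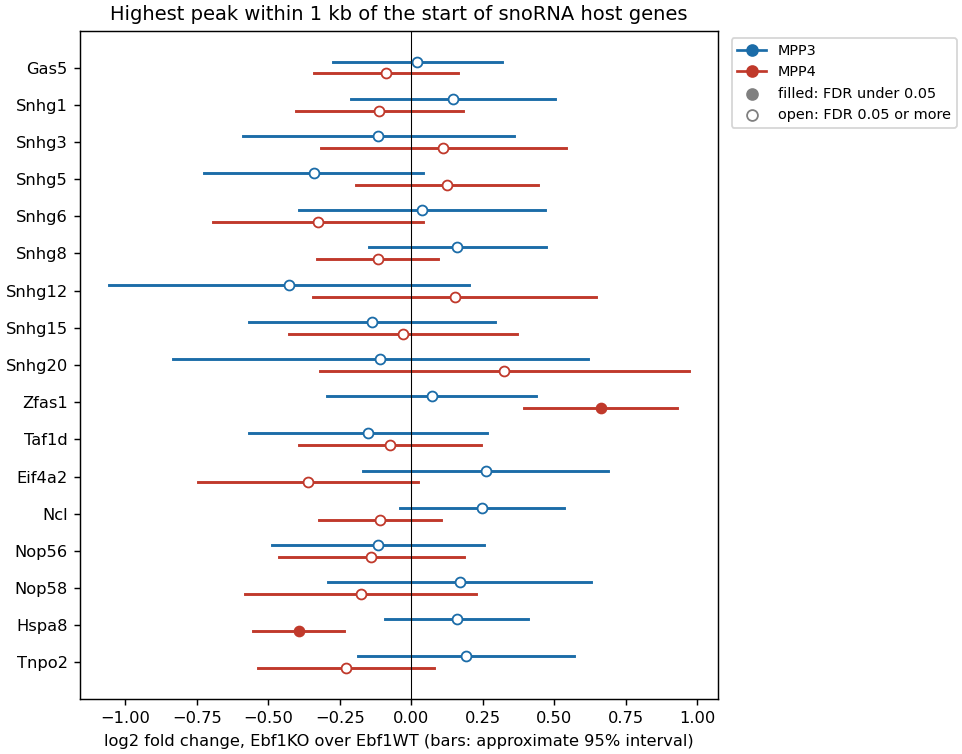
The log2 fold change of Ebf1KO over Ebf1WT at the highest peak within 1 kb of the start is drawn for the 17 listed genes, all hosts by annotation except Snhg20, in MPP3 and MPP4 cells, with bars for the approximate 95% interval and filled points for an FDR under 0.05. The points lie between −0.43 and 0.66, and those that passed are Zfas1 at 0.66 and Hspa8 at −0.39, both in MPP4 cells.

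Over all peaks assigned to any host gene, 4 of 979 were reduced in MPP3 cells and 4 of 1002 in MPP4 cells, where 1 more was gained. Beside these, 0.468% of all MPP3 peaks were reduced, and 0.118% of all MPP4 peaks were reduced and 0.209% gained. The reduced MPP3 peaks lay at Lclat1 (−4.46 ± 0.52), Eif2ak3 (−3.15 ± 0.53), Enthd1 (−3.36 ± 0.70) and Gm20661 (−1.46 ± 0.31), and they were 219 to 22594 bp from the transcript point that decided the assignment. Peaks that overlapped a snoRNA but were closest to another transcript numbered 7 in MPP3 and 5 in MPP4 cells, and 0 of them were called by the deposited edgeR test. An example is Snord49b, in the host 2410006H16Rik, at 0.31 in MPP3 and −0.44 in MPP4 cells (FDR 0.144).

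The genes of the snoRNP machinery were counted as a list of 24 core and assembly factors, which includes fibrillarin (Fbl), the methyltransferase of box C/D particles, and Nop56 and Nop58. Peaks were assigned to 23 of them, 49 in MPP3 and 52 in MPP4 cells. By the deposited edgeR test 0 peaks passed at an FDR under 0.05 in either cell type, and 3 in MPP3 and 2 in MPP4 cells had an unadjusted p under 0.05, where 6.94% and 9.6% of all peaks passed. Their median was 0.04 on the log2 fold change scale in MPP3 and −0.07 in MPP4 cells. Small nuclear RNA (snRNA) genes, which are also short genes with promoters of their own, gave the nearest comparison to U3 and U8. Of 36 peaks over snRNA genes in MPP4 cells 15 were reduced and 0 gained, beside 0.118% of all MPP4 peaks and 25 of the 2385 with a level of at least 6 on the log2 CPM scale reduced, with a median log2 fold change of −0.38 and 83.3% below 0. Examples are Rnu2-10 at −1.24 ± 0.12, Rnu5g at −1.15 ± 0.14 and Rnu1a1 at −0.96 ± 0.14. In MPP3 cells 38 such peaks had a median of 0.22 and 0 were called. By the deposited edgeR test 9 of them had an unadjusted p under 0.05, 8 higher and 1 lower in Ebf1KO cells. Of all MPP3 peaks 6.94% passed at this threshold. Of the 2616 MPP3 peaks with a level of at least 6, 241 were higher and 32 lower. The difference between snRNA and snoRNA peaks was not tested.

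The labels were checked on markers. A peak lay within 1 kb of a transcript start at 5 of 6 genes of multipotent progenitors in MPP3 cells, all except Ly6a, and at 6 of 6 in MPP4 cells. Among genes of other lineages, Cdh5, an endothelial cadherin, had such a peak with a level of 3.42 on the log2 CPM scale in MPP3 and 4.85 in MPP4 cells, while Cd3e of T cells and Ly6g of neutrophils had none in either table. The part of other cell types in the results was not tested. At Tek, whose regulatory sequence drives the Cre transgene, 5 of 6 peaks were gained in Ebf1KO MPP3 and 6 of 7 in Ebf1KO MPP4 cells. At Ebf1, 1 of 19 peaks was reduced in MPP3 and 0 of 18 in MPP4 cells. The loss of the floxed exon itself was not analysed here.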

How the data were processed

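ATAC-seq was compared between Ebf1KO and Ebf1WT in MPP3 and MPP4 cells, with 2 libraries per genotype and cell type. According to the methods and the processing notes, the authors trimmed reads with Cutadapt 2.10, mapped them to mm10, removed duplicates and long fragments, called peaks with MACS2 2.2.7.1 on merged replicates, merged peaks per cell type, counted reads with deepTools and tested genotype with edgeR 3.32.0 in R 4.0.3. Removal of long fragments restricts the values to DNA without nucleosomes. The deposited tables hold only the authors' own comparison, which is used here because the peaks exist in no other form in the files used. The authors' values are the log2 fold change and the mean log2 CPM over 4 libraries, the F statistic, a score deposited for each peak, and the deposited p-value with its FDR (Benjamini-Hochberg over all peaks of a table). There were 0 columns of other samples. The depth of single libraries is unknown here, and precision is given by the approximate SE.

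The approximate SE was obtained by dividing the size of the log2 fold change by the root of F, and 95% intervals used the degrees of freedom that match F to its p (median 20.1 in MPP3 and 48.6 in MPP4 cells). The series describes the libraries of a group as biological replicates. Peaks were assigned with GENCODE vM21 on GRCm38, and RefSeq gave snoRNA families for 268 MPP3 and 237 MPP4 peaks. Differences between cell types were tested on 66324 peak pairs, and the calculation was tested on simulated data first. The simulation drew normal errors with the same SEs that the test used, so it could not check the normal approximation. A host was a gene of another type whose transcript holds the whole snoRNA on the same strand. Python 3.11.15, numpy 2.4.6, pandas 2.3.3, scipy 1.17.1, pysam 0.24.0 and biopython 1.88 were used. Some marker genes and 1 gene sequence are not reported here.

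The genes named were every member with an FDR under 0.05, the 5 members with the smallest p and the 5 with the highest level in each table, the 3 highest and 3 lowest log2 fold changes among members with a level of at least 3, every pair that differed between cell types, and listed snoRNAs and hosts. Snord104, the Snora17 pair, other peaks of Gm22704 and Gm26021, Gm22319 and the example hosts and snRNAs were chosen after their values were seen. The members and lists were chosen with earlier results of these data known. Alternatives were other FDR thresholds, other assignment rules, centring in bins of GC content and level, a level minimum, another overlap, a t distribution and level per kb. Centring in 10 by 10 bins, centring of pair differences and leaving out the Rnu3b copies were chosen after seeing the data.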

Additional observations from a re-analysis of the deposited data

Results flagged for a closer look

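At 6 snoRNA peaks the effect of the genotype differed between MPP3 and MPP4 cells by the test of the difference itself. The log2 fold change in MPP4 minus that in MPP3 cells was −1.24 at Rnu3a, −1.13 at Rnu3b1, −1.29 at Rnu3b2, −1.21 at Snord118, −0.90 at Rnu3b4 and −0.80 at Rnu3b3. In each of them the value was above 0 in MPP3 and below 0 in MPP4 cells. With a t distribution the call was kept at Rnu3a and Rnu3b1, with centring in 20 by 20 bins of GC content and level at Rnu3a, and with 10 by 10 bins at Rnu3a and Rnu3b1. The others lost it, and at Rnu3b3 the difference turned to 0.68 (adjusted p = 0.115 from the deposited edgeR errors) with 20 by 20 bins, where its MPP3 bin held 15 peaks. Reads in the identical Rnu3b genes cannot be placed in 1 copy, and their part in the differences was not tested. Age and genotype cannot be told apart in MPP4 cells, and sex was not balanced between the genotypes there.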

How the results depend on the processing

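No paired analysis was possible because the deposited tables hold fitted comparisons and no value per library, and for the same reason no library could be left out and no other normalization or count test could be run. Of 96 alternative values, 61 stayed within the limits set for their result, 13 counts moved by more than 1.5 times, 16 single values lost their call and 6 turned their direction. Those that turned were, with 20 by 20 bins, the MPP3 value of Rnu3b3 (−1.03) and its difference between cell types (0.68), and Snord13, not called in any setting, at −0.14 in MPP3 and 0.0754 in MPP4 cells, or −0.18 and 0.0757 with 10 by 10 bins. At an FDR under 0.01 the reduced members numbered 1 in MPP3 and 3 in MPP4 cells. Peaks that shared at least 1 bp with a snoRNA gene numbered 53 in MPP3 and 52 in MPP4 cells, of which 0 and 5 were called. Assignment by the closest start alone gave 8 calls in MPP4 cells. Centring in 20 by 20 or 10 by 10 bins of GC content and level left 3 calls in MPP4 cells, Rnu3a, Rnu3b1 and Snord118, while Rnu3b4 and Rnu3b2 lost theirs. In MPP3 cells centring in 20 by 20 bins gave 4 calls, with Rnu3b3 added at −1.03, and 10 by 10 bins gave 3, so that the added call was found with 1 bin size. Without the Rnu3b copies 2 calls in MPP4 cells and 2 differing pairs were left. The differing pairs numbered 2 with a t distribution, 1 with 20 by 20 bins and 2 with 10 by 10 bins. With scaRNA genes included, Gm26347 at −3.80 became the 4th reduced MPP3 peak. At median SEs of 0.67 and 0.50 on the log2 scale, changes of the size seen at U3 were not detectable at most members.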

Other observations

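Among all members, the highest log2 fold change was 5.91 ± 2.08 (approximate SE) at a peak of 150 bp near Gm22319 in MPP4 cells, where the mean level was 0.14 on the log2 CPM scale and the FDR of the deposited edgeR fit was 0.262. Its 95% interval ran from 1.73 to 10.1.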
